A study of Mus musculus with 42 samples.

Results

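The late response of wild-type bone-marrow-derived macrophages (BMDM) to bacterial lipopolysaccharide (LPS) was described by setting the 3 libraries labelled WT LPS 24 h against the 3 labelled WT Control 24 h. These were 6 of the 42 RNA-seq libraries of the series, chosen by their column labels and by no measured value. BMDM were grown for 8 to 10 days from the bone marrow of mice on a C57BL/6 background that were 7 to 10 weeks old, in medium with 30% L929 conditioned medium as a source of macrophage colony-stimulating factor. Cells labelled KO came from mice with a deletion of Irf5 driven by Cre recombinase in the LysM locus of myeloid cells, and where the WT mice came from and which of the alleles they carried is not stated in the sources used here. LPS was given at 10 ng/ml for 24 h, and Control cells were left untreated for the same time. Used beside them were WT LPS 2 h with WT Control 2 h, and LPS 24 h with Control 24 h from cells labelled KO, with 3 libraries in each group. The libraries of a group carry no number in the count table, and the numbers 1 to 3 used here follow the order of its columns and pair nothing. Nothing states whether the 3 libraries of a group came from separate mice or cultures, so p-values measure only the spread between these libraries.

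LPS is bound by CD14 and by Toll-like receptor 4 (TLR4) with its partner MD-2. From the cell surface the adaptor MyD88 activates NF-kappaB and AP-1, which drive cytokine and chemokine genes within hours. From endosomes the adaptor TRIF activates IRF3 and the gene of interferon beta, and secreted interferon then acts through its receptor and STAT proteins on interferon-stimulated genes, so that the programme of a macrophage a day after LPS is known to differ from that of the early hours.

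The total count lay between 5720446 and 6394819 in the LPS libraries and between 3420759 and 6527382 in the Control libraries, so that 3 counts stood for 0.469 to 0.524 and 0.460 to 0.877 counts per 1000000 (CPM). Floors and intervals from counts cover counting error only. The first principal component of the 6 libraries held 73.9% of the variance and separated LPS from Control. LPS library 2 stood apart from the other 2 LPS libraries on the second component (-30.6 against 19 and 10.9, 8.16% of the variance). Of 8132 genes at 10 CPM or more on average in a group, 131 were more than 1.5-fold above and 168 more than 1.5-fold below the mean of the other LPS libraries in it, against 56 and 58 for library 1 and 43 and 38 for library 3. The nuclear RNA Neat1 was at 26.2 CPM in LPS library 2 and at 116 and 103 CPM in libraries 1 and 3. The animals were stated to be male, but Xist, the RNA of the inactive X chromosome, had 1011 to 2588 counts in the 6 libraries and the Y-linked genes Ddx3y, Uty, Kdm5d and Eif2s3y had 0 counts in all 42. Of 16 macrophage markers, all were detected, Cd163 only near the level of 3 counts in LPS (0.322 to 0.699 CPM). Their summed level was 21200 to 22100 CPM in Control and 23900 to 28300 CPM in LPS (10 higher, 5 lower). Lyz2 alone was at 11300 to 12100 CPM in Control and 10600 to 14200 CPM in LPS and was not called. Lists of markers of other cells summed to 29.9 to 65.1 CPM for neutrophils and their precursors (higher in Control, with Ly6g and Elane at 0), 18.6 to 43.3 CPM for B cells (higher in Control), 19.2 to 31.5 CPM for T or NK cells and 1.61 to 5.06 CPM for dendritic cells (higher in Control). Markers of fibroblasts summed to 1.05 to 4.66 CPM except in Control library 3 (48.9 CPM), those of mast cells and basophils to 2.41 to 6.08 CPM, and those of erythroid cells and megakaryocytes to 6.27 to 14.1 CPM (higher in Control, with 7 of 9 at 0). For each list marked as higher in Control the groups did not overlap (exact permutation test, two-sided p = 0.1, the smallest that 3 against 3 can give). The part of these lists in the results below was not tested. Irf5, the gene targeted in the cells labelled KO, was at 272 to 281 CPM in Control and 343 to 372 CPM in LPS at 24 h in those libraries and at 231 to 243 and 252 to 265 CPM in the WT libraries, so that it was not lower under the label KO, although counts over a whole gene do not show the deleted part alone.

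Of 11624 genes tested, 4594 (39.5%) were called in the quasi-likelihood test of edgeR (p adjusted after Benjamini-Hochberg over all genes tested, under 0.05). The same fit gives every adjusted p here, and values in brackets after a gene are log2 fold changes at 24 h unless said otherwise. LPS raised 2280 genes (19.6%) and lowered 2314 (19.9%), of which 695 rose by over 2-fold (5.98%) and 837 fell by over 2-fold (7.2%). The median log2 fold change was 0.60 among the genes called higher and -0.70 among those called lower. The 3 LPS libraries did not overlap the 3 Control libraries in 48.1% of all genes tested, called or not. The bars of the members called per list show how far each of 33 gene lists stood from these backgrounds. Counts of members called higher or lower at 24 h stand beside 19.6% and 19.9% of all genes throughout. Those at 2 h stand beside 14% and 9.1%, and those of a larger or smaller log2 fold change at 24 h than at 2 h beside 14.5% and 18.1%. The lists held 736 tested genes, 349 of them higher and 173 lower.

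**Figure D1:**
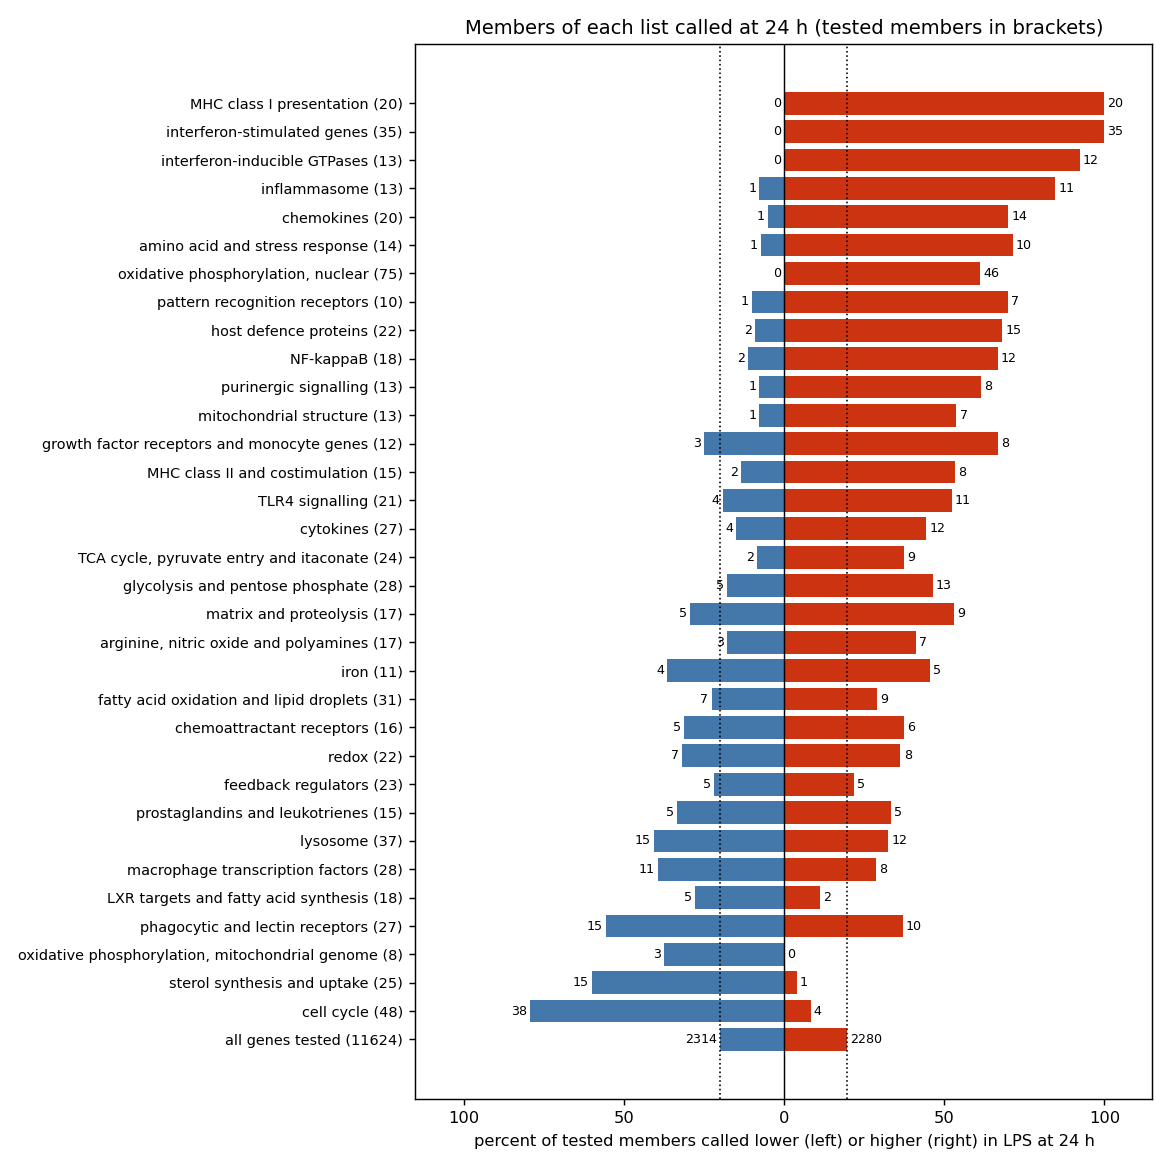
Percent of the tested members of each gene list called lower (left, blue) or higher (right, red) in WT LPS 24 h against WT Control 24 h, with the number of members called beside each bar and the number tested in brackets. Dotted lines mark the shares over all genes tested, 19.9% lower and 19.6% higher, and the interferon-stimulated and MHC class I lists lie at one end and the cell cycle list at the other.

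Of 6 genes of the LPS receptor, its co-receptors and related proteins 4 were higher at 24 h, namely Cd14, Ly96, Ly86 (1.91-fold) and Cd180 (1.15-fold). Tlr4 and the LPS-binding protein gene Lbp were not called. Tlr4 was at 80.0, 72.3 and 85.5 CPM in the Control libraries and at 80.1, 87.2 and 84.2 CPM in the LPS libraries, which overlap (log2 fold change 0.08, SE 0.09, adjusted p = 0.533). Cd14, which hands LPS to the receptor, was at 79.4, 78.2 and 73.4 CPM in Control and at 194, 261 and 200 CPM in LPS (1.51, SE 0.13, adjusted p = 2.76e-14), with all LPS libraries above all Control libraries. Whether a change in a bulk library comes from more cells of a type or more RNA per cell cannot be told apart here or below. Among the inhibitors, Irak3, a member of the IRAK family that is associated with LPS tolerance, rose 5.19-fold (82.2, 75.1 and 73.0 CPM in Control, 385, 432 and 372 CPM in LPS, adjusted p = 1.66e-22). The inhibitors Tollip and Inpp5d, the other two of the 3 tested, fell by little (1.21-fold and 1.11-fold lower), calls that were lost without LPS library 3 for Tollip, and without LPS library 2, without Control library 1 or with all genes with a count tested for Inpp5d. Ly96, which encodes MD-2, was among the 4 higher genes of the receptor group (0.59), but its call was lost in 7 of 10 settings. Of 21 tested genes of TLR4 signalling 11 were higher and 4 lower, beside 19.6% and 19.9% of all genes. The share lower was thus near the background. The median log2 fold change was 0.21 against -0.01 over all genes tested. The adaptor Myd88 (log2 fold change 1.03) and the kinase Map3k8 (1.04) were among the higher members, and the kinase Irak1 (-0.29) among the lower. Among 10 other pattern recognition receptors 7 rose, with Tlr1 (1.99), Tlr2 (1.67) and Tlr3 (1.70) in front, and Tlr13, an endosomal sensor of bacterial ribosomal RNA, fell (-1.0).

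Genes of the NF-kappaB system were still above Control at 24 h, by less than at 2 h. Of 18 members 12 were higher and 2 lower, with a median log2 fold change of 0.91, where 17 had been higher at 2 h (median 1.95, against a background of 14% of genes higher at 2 h). The difference between the responses at 24 h and 2 h was called for 15 members, 14 of them with a smaller response at 24 h (background 18.1%) and 1 with a larger (background 14.5%). Tnfaip3, a ubiquitin-editing inhibitor of NF-kappaB, was at 35.7, 37.2 and 32.1 CPM in Control and at 60.9, 56.1 and 60.6 CPM in LPS at 24 h (log2 fold change 0.77, SE 0.09, adjusted p = 1.43e-10). At 2 h it was at 97.4, 96.6 and 103 CPM in Control and at 2179, 2190 and 2161 CPM in LPS (4.46). Nfkbia, which encodes the inhibitor IkappaB alpha, and Nfkbiz, a nuclear co-regulator, showed the same order of times (1.31 against 2.98 and 1.43 against 5.44). Ikbke, an interferon-inducible kinase, went the other way (2.16 against 1.02), and Rel fell at 24 h (-0.36), a call that was lost when any of 4 single libraries was left out or the 6 libraries were fitted alone.

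Fewer cytokine genes were called higher at 24 h than at 2 h. Of 27 tested cytokines 12 were higher at 24 h and 4 lower, beside 19.6% and 19.9% of all genes. The share lower was thus not above the background. The response was smaller than at 2 h for 11 of the 27 (background 18.1%) and larger for 3 (background 14.5%). The median log2 fold change was 0.95, or 1.02 with genes at 0 in a group set at their bounds. At 2 h 22 were higher (median 2.67), beside 14% of all genes. Tnf was at 17.7, 21.6 and 19.8 CPM in Control and at 67.3, 55.3 and 55.7 CPM in LPS (1.57, SE 0.12, adjusted p = 2.42e-16). At 2 h the Control libraries were at 69.3, 76.6 and 72.9 CPM and the LPS libraries at 2023, 1917 and 2023 CPM (4.77), so the untreated level of Tnf itself differed between the time points. Il1b was at 0.281, 1.37 and 0.874 CPM in Control and rose to 36.8, 50.1 and 37.1 CPM, a 43.8-fold change (adjusted p = 1.43e-20). Il6 had 0 counts in Control and 15 counts over the 3 LPS libraries, at least 4.24-fold higher when set against 3 counts over the Control group. Ifnb1 and Il23a had 0 counts in all 6 libraries at 24 h, where Ifnb1 had 358 counts over the 3 LPS libraries at 2 h and 2 in the Control libraries. Of the counter-regulators, Il1rn, the interleukin-1 receptor antagonist, rose 14.5-fold (12.9, 15.6 and 13.1 CPM to 225, 172 and 211 CPM), more than at 2 h (log2 fold change 3.86 against 2.30). Il10 was at 1.46 to 2.57 CPM in Control and 4.30 to 4.62 CPM in LPS (1.08 at 24 h, 4.01 at 2 h), a call lost without Control library 3. Of 7 growth factors and interferon genes 3 fell, among them Igf1, from 895, 860 and 871 CPM to 284, 307 and 275 CPM (-1.60, SE 0.05, adjusted p = 7.10e-30), and Pdgfb (-1.58).

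Ccl5, a chemokine for T cells and monocytes, had the smallest adjusted p of all genes. It lies on chromosome 11 from 83525778 to 83530518 (GRCm38, minus strand). Its level was 8.70, 6.86 and 4.52 CPM in Control and 1996, 1902 and 2055 CPM in LPS, a 313-fold change (log2 fold change 8.29, SE 0.12, adjusted p = 5.30e-45). Cxcl9, an interferon-inducible ligand of CXCR3 (chromosome 5, 92321347 to 92328079, minus strand), had 0 counts in Control and was at 40.2, 35.3 and 48.4 CPM in LPS, at least 216-fold higher. Of 20 tested chemokines 14 were higher and 1 lower (median 2.45, or 1.76 with bounds). Ccl3 and Ccl4, chemokines for monocytes and T cells, were close to Control after 24 h and far above it after 2 h. Ccl4 was at 17.4, 18.9 and 18.8 CPM in Control and 19.3, 14.9 and 16.2 CPM in LPS (-0.14, adjusted p = 0.520), against 813 to 926 CPM in LPS at 2 h. Ccl3 was called (0.38, adjusted p = 0.0137), but not without LPS library 1 or without Control library 3. Cxcl10, another CXCR3 ligand, was 15.4-fold higher than Control at 24 h (0.561, 0 and 0.874 CPM in Control, 7.53, 7.78 and 8.27 CPM in LPS), and stood at 528 to 663 CPM in LPS at 2 h. The single lower chemokine was Cx3cl1 (-2.50). Among receptors for chemoattractants, Fpr2, a formyl peptide receptor, rose 22-fold, while Ccr3 (-1.60) and the CXCL12 receptor Cxcr4 (-0.62) fell.

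**Figure D2:**
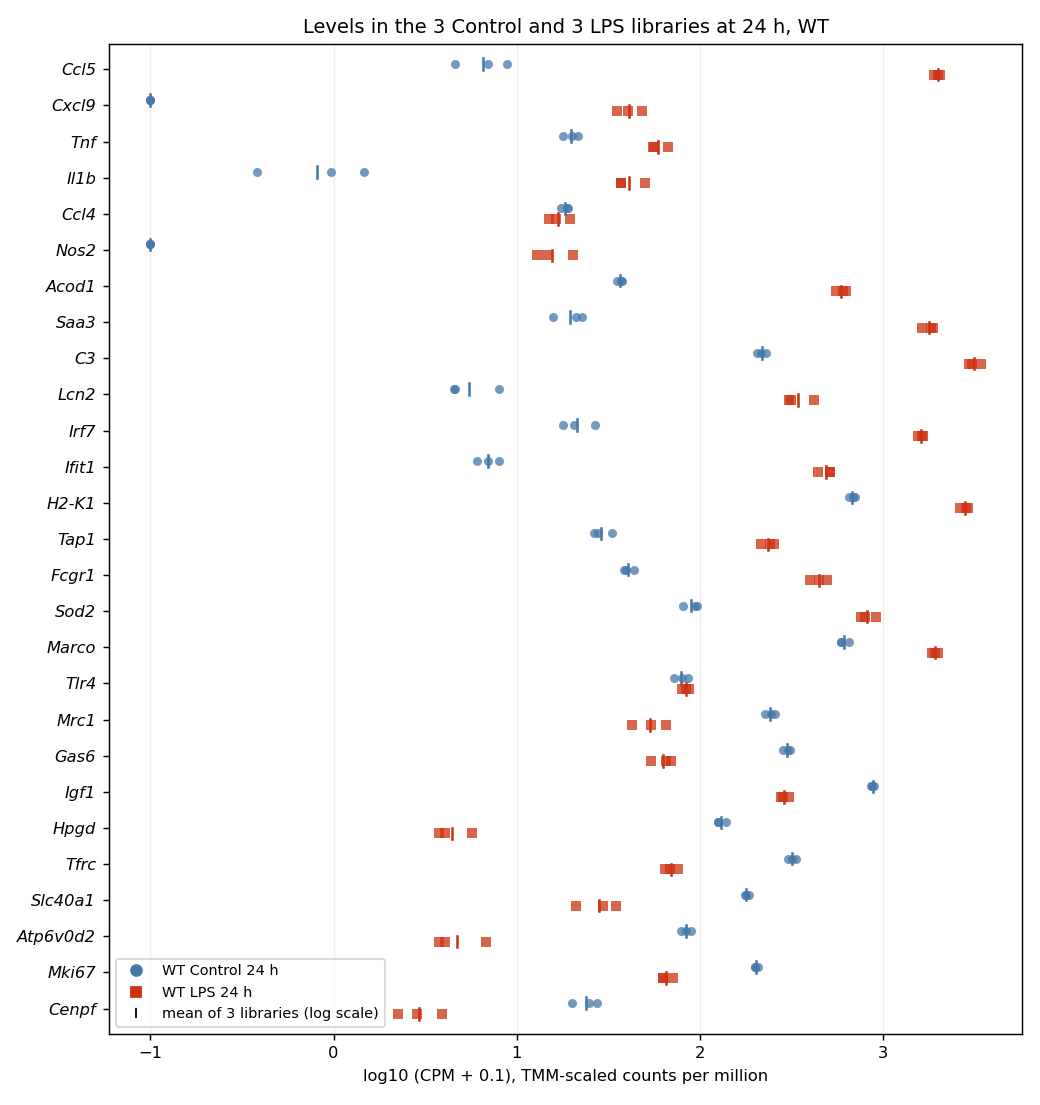
Levels of 27 genes in each library at 24 h, as log10 of TMM-scaled CPM plus 0.1 (horizontal axis), with 3 WT Control 24 h libraries as blue circles, 3 WT LPS 24 h libraries as red squares and the mean on the log scale as a bar. Cxcl9 and Nos2 have 0 counts in Control, Tlr4 and Ccl4 overlap between the groups, and the other 25 genes do not.

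Interferon-stimulated genes rose as a group. All 35 tested members were called higher in LPS, beside 19.6% of all genes. The groups did not overlap for any of the 35, beside 48.1% of all genes without overlap. Their median log2 fold change was 4.13 at 24 h and 1.22 at 2 h, where 26 had been called higher. The response was larger at 24 h than at 2 h for 28 members and smaller for 1, Irf1. Without LPS library 2 all 35 were still called higher, as were all 20 genes of the MHC class I list. Irf7, the regulator that amplifies interferon production (chromosome 7, 141262706 to 141266481, minus strand), was at 17.7, 20.6 and 26.7 CPM in Control and at 1547, 1630 and 1642 CPM in LPS, a 72.1-fold change (log2 fold change 6.17, SE 0.22, adjusted p = 4.49e-29). At 2 h its level was 42.8 to 61.7 CPM in Control and 38.4 to 44.7 CPM in LPS (-0.30, adjusted p = 0.411). Stat2 (3.30) and Irf9 (1.52), factors that act downstream of the interferon receptor, rose as well, although Irf9 overlaps Rnf31 on the same strand and their reads may not be separable.

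The antiviral effectors differed in how early they responded. Ifit1, which binds foreign RNA, was at 7.86, 6.86 and 5.97 CPM in Control and at 515, 442 and 511 CPM in LPS at 24 h (6.18), and had reached 559 to 760 CPM at 2 h (5.73). Rsad2, which encodes the antiviral enzyme viperin, likewise had 5.17 at 24 h and 5.66 at 2 h, and for neither gene was the difference between times called (adjusted p = 0.174 and 0.135). Oas3, a sensor of double-stranded RNA, had 3.88 at 24 h and -0.34 at 2 h, and Ifitm3, which blocks virus entry, 4.13 and -0.30. Zbp1, a sensor of nucleic acids in the Z form, rose 74.6-fold at 24 h. Mx1, an antiviral GTPase, was at 5.05, 3.60 and 2.77 CPM in Control and at 214, 118 and 222 CPM in LPS, with the lowest LPS value in library 2. Of 13 tested GTPases that interferon induces, 12 were higher (median 3.83), led by Iigp1 (6.09) and Gbp2 (62.8-fold), and Gbp8 was not called at 1.68 and 1.70 CPM. Ifit3 with Ifit3b, Gbp2 with Gbp2b, and Oas1a with Oas1g are close copies, and Igtp overlaps Irgm2, so the split of reads between them is uncertain. Tgtp1, listed beside Tgtp2, was not among the genes tested, and whether these genes share reads was not tested.

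Promoters of the genes that moved were read from RefSeq (GRCm38.p6) to see which letters they share. Matches to 6 motifs were counted on both strands of the 250 bases before the start, for 8900 tested genes whose symbol matched. The core of the IRF site, GAAANNGAA, was found in 7.83% of them, in 20.9% of the genes that rose by over 2-fold, in 5.64% of those that fell by over 2-fold and in 20 of 36 interferon-stimulated genes and GTPases (55.6%). The kappaB consensus was in 10.6%, 14.2% and 10.4% of these promoters and in 9 of 18 of the MHC class I list (50%). AP-1 sites (TGANTCA) were in 5.42%, 10.9% and 6.63%. The box bound by NF-Y, CCAAT, was in 40.4% of all promoters, in 16 of 18 of the G2 and mitosis genes (88.9%), in 13 of 13 of the sterol enzymes and in 13 of 18 of the MHC class I list (72.2%), and the cell cycle element CHR (TTTGAA) in 12.8% and 44.4%. The sterol element core TCACNCCAC was in 1.24% of all promoters and in 0 of 13 promoters of sterol enzymes. These shares are descriptions without a test, a match is not a bound site, and the lists were known when the motifs were chosen.

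The 200 bases before the start are shown for genes of each kind with a large response and a match. The first 3 were raised genes of the interferon lists, with the IRF core or its reverse complement in capitals: Ifit3 (chr19:34583329-34583528, plus strand) with 3 matches, Isg15 (chr4:156200819-156201018, minus strand) with 3 overlapping ones and Tgtp2 (chr11:49064213-49064412, minus strand) with 1.
Ifit3: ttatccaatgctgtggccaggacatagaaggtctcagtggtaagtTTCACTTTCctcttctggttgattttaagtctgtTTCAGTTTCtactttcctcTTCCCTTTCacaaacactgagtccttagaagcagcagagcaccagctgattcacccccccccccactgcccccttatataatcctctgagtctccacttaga
Isg15: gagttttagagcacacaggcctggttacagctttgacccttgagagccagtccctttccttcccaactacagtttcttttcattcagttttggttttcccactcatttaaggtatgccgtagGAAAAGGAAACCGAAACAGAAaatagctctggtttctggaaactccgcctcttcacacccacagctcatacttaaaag
Tgtp2: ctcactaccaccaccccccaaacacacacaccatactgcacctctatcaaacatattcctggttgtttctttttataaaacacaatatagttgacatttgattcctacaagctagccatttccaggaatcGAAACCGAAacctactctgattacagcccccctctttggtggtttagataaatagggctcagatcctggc
Cxcl3 (chr5:90785901-90786100, plus strand) and Tnip3 (chr6:65590198-65590397, plus strand) were raised genes with the kappaB consensus, in capitals, which matched in 2 overlapping frames in Cxcl3.
Cxcl3: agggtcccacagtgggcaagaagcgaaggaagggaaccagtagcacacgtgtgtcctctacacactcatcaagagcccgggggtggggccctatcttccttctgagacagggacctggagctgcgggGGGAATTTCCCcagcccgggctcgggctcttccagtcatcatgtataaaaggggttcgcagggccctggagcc
Tnip3: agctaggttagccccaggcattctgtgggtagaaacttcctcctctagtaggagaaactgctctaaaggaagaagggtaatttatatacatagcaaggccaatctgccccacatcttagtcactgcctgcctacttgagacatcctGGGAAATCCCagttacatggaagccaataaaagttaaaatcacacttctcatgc
Cenpf (chr1:189688087-189688286, minus strand) and Hmmr (chr11:40733438-40733637, minus strand) were lowered genes of mitosis, with 2 and 5 NF-Y boxes in capitals, as CCAAT or its reverse complement.
Cenpf: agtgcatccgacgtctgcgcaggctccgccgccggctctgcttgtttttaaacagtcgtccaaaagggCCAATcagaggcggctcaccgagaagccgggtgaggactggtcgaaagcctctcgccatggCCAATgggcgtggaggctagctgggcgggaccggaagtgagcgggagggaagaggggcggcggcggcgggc
Hmmr: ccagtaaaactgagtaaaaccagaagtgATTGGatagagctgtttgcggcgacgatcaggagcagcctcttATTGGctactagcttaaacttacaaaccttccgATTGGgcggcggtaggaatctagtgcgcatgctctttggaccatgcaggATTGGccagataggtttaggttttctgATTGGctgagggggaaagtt
In the libraries, Ifit3 was at 6.46, 8.91 and 6.70 CPM in Control and at 783, 615 and 784 CPM in LPS, and Isg15, a ubiquitin-like protein, at 2.25, 3.09 and 2.62 CPM and at 173, 133 and 167 CPM. Tgtp2 was at 0.437 to 1.71 CPM in Control and 28.1 to 51.4 CPM in LPS, and Cxcl3, a neutrophil chemokine, at 1.75 to 2.81 CPM and 36.4 to 62.1 CPM. Cenpf and Hmmr are described with the cell cycle below.

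**Figure D3:**
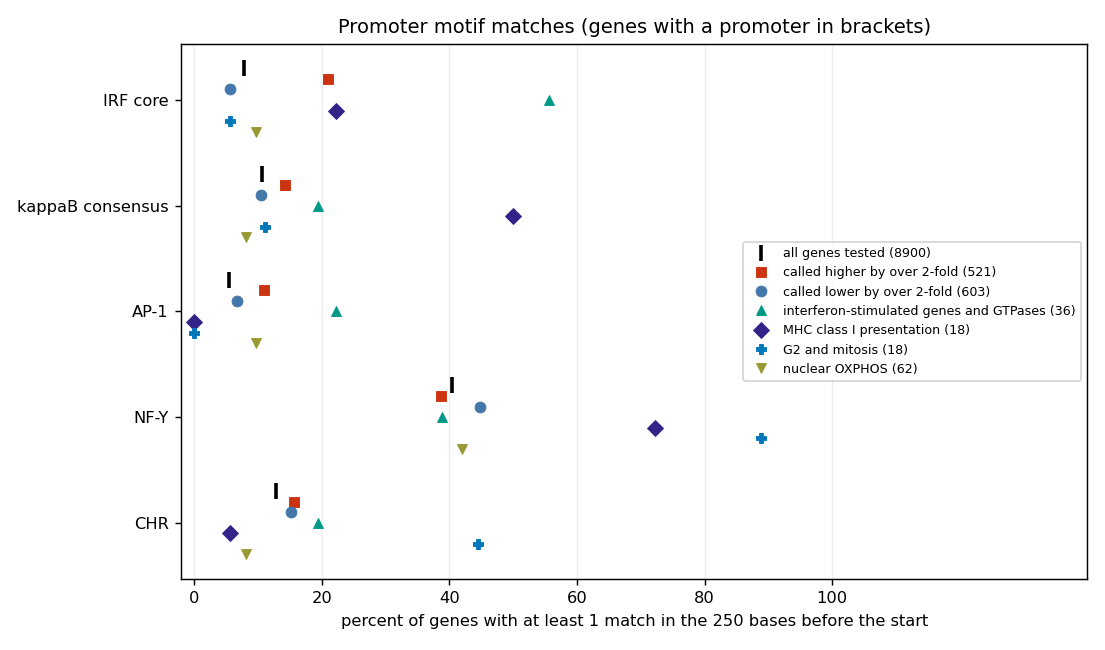
Percent of genes with at least 1 match to each of 5 motifs on either strand in the 250 bases before the start (horizontal axis), for all tested genes with a promoter and for 6 groups of genes, with the number of promoters in brackets. Among the groups plotted the IRF core lies farthest right in the interferon lists (55.6% against 7.83% of all) and the NF-Y box in the G2 and mitosis genes (88.9% against 40.4%), while sterol enzymes, which are not plotted, held the NF-Y box in 13 of 13 promoters.

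Every tested gene of antigen presentation by MHC class I was higher, and for each of these 20 genes the response at 24 h exceeded that at 2 h. The median log2 fold change was 2.07, after 0.12 at 2 h. H2-K1, a classical class I heavy chain (chromosome 17, 33996017 to 34000347, minus strand), was at 683, 704 and 655 CPM in Control and at 2624, 2910 and 2834 CPM in LPS (2.04, SE 0.07, adjusted p = 7.10e-30). H2-T22, a non-classical chain, rose 13.2-fold and had 3.72 at 24 h and -0.11 at 2 h. H2-Q6 and H2-Q7 rose from 1.89 and 3.23 CPM on average to 205 and 183 CPM, but as near copies they may share reads. The shared light chain B2m rose 3.00-fold, the peptide transporter Tap1 8.29-fold and the immunoproteasome subunit Psmb8 4.40-fold. Class II was less uniform. H2-Ab1 (0.91), its chaperone Cd74 (0.72) and H2-DMa (0.64) were higher, while H2-Aa was at 27 and 29.9 CPM on average, H2-Eb1 at 21.8 and 22.2 CPM and the class II regulator Ciita at 5.93 and 5.45 CPM, none of them called. Of 8 costimulatory and checkpoint genes 5 rose, among them Cd40 (1.84), Cd86 (1.49) and the checkpoint ligand Cd274 (2.26), and the receptors Havcr2 (-1.70) and Cd200r1 (-0.33) fell, the latter not called without Control library 3. The call of H2-DMa was lost without LPS library 2, Control library 1 or Control library 2.

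Of 14 acute phase and antimicrobial genes 8 were higher and 1 lower (median 0.60), with a few large changes. Saa3, an acute-phase protein (chromosome 7, 46711998 to 46715700, minus strand), was at 21.1, 22.6 and 15.6 CPM in Control and at 1633, 1818 and 1883 CPM in LPS, a 91.4-fold change (adjusted p = 1.11e-34). At 2 h it had reached 69.4 to 91.5 CPM. Lcn2, which sequesters bacterial siderophores, rose 58.9-fold, from 4.49, 4.46 and 7.87 CPM to 314, 421 and 307 CPM, with the highest value in LPS library 2. C3, the central complement component, was at 231, 216 and 205 CPM and rose to 2938, 3420 and 3055 CPM (3.86, SE 0.10, adjusted p = 6.33e-34), after 0.43 at 2 h. Of 8 tested complement genes 7 rose, with Cfb at least 37.3-fold higher than its 0 counts in Control. The list of 22 host defence genes had 15 higher and 2 lower members. Hp, haptoglobin, had 3.87 at 24 h and -0.07 at 2 h, and S100a9, a protein of neutrophils and monocytes, fell (-1.34).

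Genes for nitric oxide and itaconate were raised. Nos2, the inducible nitric oxide synthase (chromosome 11, 78920787 to 78960254, plus strand), had 0 counts in Control and was at 12.8, 20.2 and 14.5 CPM in LPS, at least 82.5-fold higher. Of 10 tested genes for the use of arginine 7 rose, among them Ass1, which regenerates arginine (7.97-fold, from 44.1, 29.3 and 37.7 CPM to 262, 354 and 256 CPM), and the transporter Slc7a2 (10.2-fold). At 2 h Ass1 had -0.01 and was not called. Arg1 was at 0.000 to 1.12 CPM in Control and 0.856 to 4.63 CPM in LPS, its groups overlapped, and its call was lost without LPS library 2 or Control library 3. Acod1, which makes itaconate (chromosome 14, 103046977 to 103056573, plus strand), rose from 37.3, 37.2 and 35.3 CPM to 602, 627 and 551 CPM (4.02, SE 0.15, adjusted p = 6.51e-28), somewhat less than at 2 h (4.64, adjusted p of the difference = 0.0152). Of 13 inflammasome genes 11 rose, beside 19.6% of all genes, led by Mefv (2.27), Casp4 (1.83) and Gsdmd, the pore-forming gasdermin (1.62). Nlrp3 was at 0.70 after 4.06 at 2 h, and Nlrp1b fell (-0.63, not called without LPS library 2). Ptges, the inducible prostaglandin E synthase, rose from 2.53 to 6 CPM in Control to 65.0 to 84.6 CPM. Ptgs2, the cyclooxygenase before it, rose 3.72-fold at 24 h (3.21 to 5.66 CPM in Control, 12.2 to 23.2 CPM in LPS) and had been at 260 to 331 CPM in LPS at 2 h. Of 15 genes of prostaglandins and leukotrienes 5 were higher and 5 lower, beside 19.6% and 19.9% of all genes. Hpgd, which degrades prostaglandins (chromosome 8, 56294585 to 56321043, plus strand), was at 126, 139 and 125 CPM in Control and at 3.94, 5.63 and 3.67 CPM in LPS, 29.4-fold lower (adjusted p = 8.47e-30), and had -0.16 at 2 h.

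Surface receptors for uptake changed in opposite directions. Of 8 scavenger receptors 3 rose and 5 fell, and of 6 genes for the clearance of dying cells 1 rose and 5 fell. The shares over all genes were 19.6% higher and 19.9% lower. Marco, a scavenger receptor for bacteria, was at 654, 589 and 592 CPM in Control and at 1853, 1928 and 1983 CPM in LPS (1.65, SE 0.10, adjusted p = 3.00e-20). Mrc1, the mannose receptor (chromosome 2, 14229392 to 14332057, plus strand), was at 258, 226 and 245 CPM in Control and at 53.7, 42.5 and 65.4 CPM in LPS, 4.49-fold lower (adjusted p = 7.92e-21). Cd36 (-0.90), Stab1 (-1.16), Cd5l (-1.60) and the bridging molecule Gas6 (-2.24) fell, and Axl, which binds Gas6, rose (1.47) while its relative Mertk fell (-0.45). Clec4e, the lectin Mincle that senses mycobacterial lipid, rose 33.4-fold, Siglec1 rose 6.18-fold, and Clec7a, the beta-glucan receptor, fell (-1.61). Of 5 genes of Fc gamma receptors and their shared chain 4 rose, with the high-affinity receptor Fcgr1 at 38.5, 43.7 and 39.5 CPM in Control and 445, 399 and 496 CPM in LPS. Fcgr3 fell (-0.87).

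The factors that set macrophage identity mostly fell. Of 11 lineage factors 7 were lower, among them Cebpa (-1.95), Mef2c (-1.32) and Mef2a (-0.87), Spi1, which encodes PU.1, was higher (0.49), as was Maf (0.61), and Irf8 and Runx1 were not called (-0.12 and 0.13). Cebpa had fallen already at 2 h (-1.49, beside 9.1% of genes lower at that time). Of the factors of the LPS response, Batf2 (2.97), Batf (2.60) and Hif1a (1.12) were higher at 24 h. The immediate-early genes Egr1 and Klf2, with 2.79 and 1.52 at 2 h, were not called at 24 h (6.05 and 5.97 CPM on average for Egr1 in Control and LPS, 22 and 21.9 CPM for Klf2), and Egr2 and Atf3 fell (-2.03 and -1.04). Of 7 phosphatases of MAP kinases, 5 were higher at 2 h and 0 at 24 h, where Dusp1 was at 20.5, 16.5 and 12.8 CPM in Control and 13.5, 14.9 and 10.9 CPM in LPS and was not called. Csf1r, the receptor for the growth factor of these cells, rose slightly (0.22), a call lost without LPS library 2.

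Genes of proliferation fell. All 22 tested genes of G2 and mitosis were lower in LPS (median -1.72), beside 19.9% of all genes, and 14 of 20 genes of S phase were lower and 1, E2f1, higher, a call lost without LPS library 3. Mki67, a marker of cycling cells (chromosome 7, 135689784 to 135716361, minus strand), was at 200, 199 and 207 CPM in Control and at 70.9, 62.4 and 62.6 CPM in LPS (-1.63, SE 0.12, adjusted p = 4.11e-17). At 2 h it was higher in LPS (1.68), with 162 to 251 CPM in Control and 554 to 686 CPM in LPS, and it was the single gene of the mitosis group called at that time. Cenpf, a kinetochore protein, was at 19.9, 24.9 and 27.4 CPM in Control and at 2.74, 2.15 and 3.83 CPM in LPS, 8.29-fold lower, and Hmmr at 21.9, 17.8 and 23.5 CPM and at 3.59, 2.15 and 2.91 CPM. The mitotic kinase Plk1 was 6.95-fold lower. Among the replication genes, Pcna (-0.91), Mcm7 (-0.77) and Rrm2 (-1.54) fell. The cyclin-dependent kinase inhibitor Cdkn1a rose (0.76), while another such inhibitor, Cdkn2c, was 3.7-fold lower. Cyclin Ccnd1 fell (-1.23), and Ccnd2 and Ccnd3 rose (1.61 and 0.97).

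Nuclear genes for oxidative phosphorylation rose by small amounts and together. Of 75 tested subunits of complexes I to V, 46 were called higher and 0 lower, and 69 had a log2 fold change above 0, beside 19.6% of all genes called higher and a median of -0.01. The median log2 fold change over the 75 was 0.36 at 24 h and -0.01 at 2 h, when 0 were higher and 1, Atp5o, lower. The count was 20 of 37 for complex I, 4 of 4 for complex II, 6 of 9 for complex III, 5 of 10 for complex IV and 11 of 15 for complex V. Ndufc2 of complex I (chromosome 7, 97400003 to 97407802, plus strand) was at 38.2, 30 and 32.5 CPM in Control and at 54.4, 66.2 and 57.3 CPM in LPS (0.84, SE 0.12, adjusted p = 8.14e-08). Atp5o of complex V (chromosome 16, 91925214 to 91931687, minus strand) was at 53.1, 55.0 and 53.3 CPM and at 87.5, 108 and 93.8 CPM (0.84, SE 0.09, adjusted p = 4.72e-11). Sdhb (0.70), Uqcrq (0.59) and Cox5a (0.76) had the largest called changes of complexes II, III and IV. The difference between times was called for 32 subunits, each with the larger response at 24 h. Without LPS library 2, 38 subunits were called higher.

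Of the 8 tested protein genes of the mitochondrial genome 0 were called higher. mt-Cytb fell (-0.54, adjusted p = 4.00e-05), with 529, 522 and 523 CPM in Control and 429, 386 and 270 CPM in LPS, and mt-Nd5 (-0.35) and mt-Nd4 (-0.28) were called lower. This count of 3 was 1 without LPS library 3 or without Control library 2, and the groups overlapped for mt-Nd4. All 37 genes of the mitochondrial genome together held 8.63% of the counts in Control and 6.38% in LPS (exact permutation test over the 3 and 3 libraries, two-sided p = 0.1, the smallest this design can give). The 13 protein genes among them held 4730 CPM in Control and 3840 CPM in LPS on average. Most of the share thus came from genes that encode no protein, in libraries depleted of ribosomal RNA. The part of the depletion in this share was not tested. Of 13 genes of mitochondrial structure 7 rose and 1 fell. Ghitm, which encodes a protein of the inner membrane that the study examined, was at 96.0, 103 and 98.6 CPM in Control and at 153, 167 and 161 CPM in LPS (0.69, SE 0.07, adjusted p = 2.31e-11). At 2 h it had 0.18 (adjusted p = 0.0750). The list held Ghitm because the study had singled it out.

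**Figure D4:**
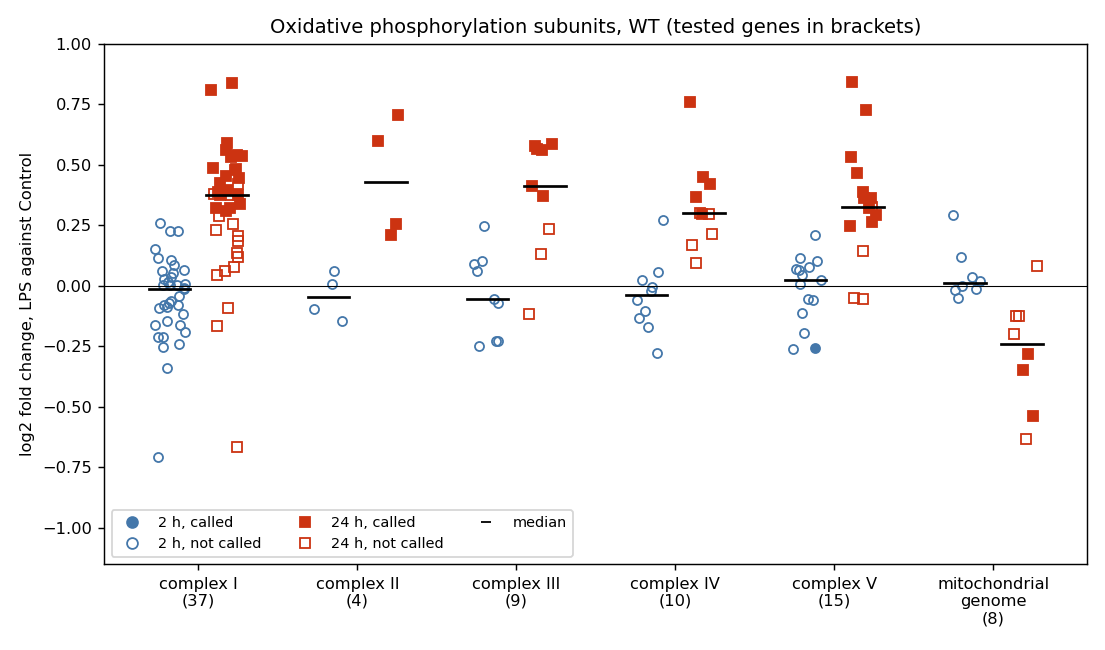
Log2 fold changes of LPS against Control in WT at 2 h (blue circles) and at 24 h (red squares) for tested subunits of each complex encoded in the nucleus and for the protein genes of the mitochondrial genome, with filled symbols for genes called and a bar at the median. At 24 h the medians of complexes I to V lie between 0.30 and 0.43 and that of the mitochondrial genome at -0.24, while at 2 h all lie near 0.

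Glycolysis and the TCA cycle changed less evenly. Of 28 tested genes of glycolysis and the pentose phosphate path 13 were higher and 5 lower, beside 19.6% and 19.9% of all genes. Only 7 were higher without LPS library 2 and 8 without Control library 3, which is closer to the background. The transporter Slc2a6 was at 4.46 to 4.52 CPM in Control and 53.1 to 62.6 CPM in LPS (3.71). Pfkfb3, which makes the activator of phosphofructokinase, had 0.81 and hexokinases Hk2 and Hk3 0.62 and 0.66, while Slc2a1, the main glucose transporter, was at 105 and 90.9 CPM on average and was not called. Of 24 genes of the TCA cycle, pyruvate entry and itaconate 9 were higher and 2 lower, and 5 were higher without LPS library 2 or when all genes with a count were tested. The count of 5 lay near the background of 19.6%. Mdh2 (0.55) rose, and Pdk1, which inhibits pyruvate dehydrogenase, fell (-0.71).

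Genes of sterol synthesis fell. Of 18 tested enzymes 11 were lower and 0 higher (median -0.64), after 6 higher and 0 lower at 2 h (median 0.36). Cyp51, the lanosterol demethylase, was at 34.5, 27.8 and 32.5 CPM in Control and at 11.1, 12.6 and 10.9 CPM in LPS (-1.45, SE 0.17, adjusted p = 4.94e-10), after 0.99 at 2 h. Sqle, squalene epoxidase, fell as well (-0.97). Ch25h, which makes 25-hydroxycholesterol, had 0 counts in Control and 21 in LPS, at least 5.93-fold higher. Without LPS library 2, 15 of the 25 genes of sterol synthesis and uptake were lower, as with it. Of the genes for cholesterol efflux, Abca1 was at 838 and 836 CPM on average, Apoe fell (-0.75) and Nr1h3, which encodes LXR alpha, rose (2.06). In fatty acid metabolism Acsl1, an acyl-CoA synthetase, rose 6.70-fold, the lipid droplet protein Plin2 rose (0.62), and the lipase Lpl fell from 3342 to 1144 CPM on average (-1.55), as did Fasn (-1.13).

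Iron, redox and lysosomal genes were mixed. Tfrc, the transferrin receptor (chromosome 16, 32608920 to 32632794, plus strand), was at 316, 301 and 334 CPM in Control and at 69.0, 75.8 and 64.5 CPM in LPS, 4.55-fold lower (adjusted p = 3.99e-28). Slc40a1, the iron exporter ferroportin, was 6.29-fold lower (176, 178 and 184 CPM against 29.6, 21 and 34.8 CPM), and Fth1, ferritin heavy chain, rose (0.46). Sod2, the mitochondrial superoxide dismutase, rose 9.16-fold, and 4 of the 5 tested genes of the phagocyte NADPH oxidase rose, with Cybb at 1.37. Of 14 genes of NRF2 and its targets 2 were higher and 6 lower, beside 19.6% and 19.9% of all genes. The share higher was thus not above the background. Prdx5, a peroxiredoxin, was at 2.14 and Gclc, of glutathione synthesis, at -1.93. Of 37 lysosomal genes 12 rose and 15 fell, beside 19.6% and 19.9% of all genes. Ctsz, a cathepsin, rose 2.49-fold, the acid lipase Lipa fell (-0.93), and Atp6v0d2, a subunit of the proton pump, fell from 83.4, 78.7 and 89.3 CPM to 6.68, 3.97 and 3.67 CPM, 17.7-fold lower. Amino acid and stress genes rose in 10 of 14 cases, among them Mthfd2 (1.85), Asns (1.62) and Atf4 (1.00).

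Other genes ranked high as well or were members of lists not described above. Susd2, which encodes a membrane protein, had 2 counts over the Control libraries and 967 over the LPS libraries, a ratio of 410 (95% exact interval 113 to 3390), and 4 and 1 counts in LPS and Control at 2 h. Ms4a4c was at 0.000 to 1.20 CPM in Control and 157 to 215 CPM in LPS, and Slfn1, a Schlafen gene, at 0.343 to 0.842 CPM and 137 to 144 CPM. Among the lowered genes were Lrp1, a large endocytic receptor (4280, 3798 and 4179 CPM against 1352, 1230 and 1287 CPM), Rcbtb2 (-2.13), Reps2 (-3.27), Cd28 (-3.05) and Nanos1 (-5.19). Of 13 tested genes of purinergic signalling 8 were higher, among them P2ry14 (5.25-fold) and Adora2a (4.93-fold), and 1 was lower. Entpd1 of this list, the ectonucleotidase CD39, was 5.51-fold lower. The metalloproteinase Mmp9 rose (3.48) and Mmp12, the macrophage elastase, fell (-2.14). Of 6 osteoclast markers, Mmp9 and Acp5 were called higher (Acp5 2.01) and their summed level was 61.0 to 64.8 CPM in Control and 351 to 476 CPM in LPS, most of it from these genes.

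The responses at 24 h and at 2 h came from separate libraries, and the genes they share were counted. Of the 2280 genes higher at 24 h, 682 were higher at 2 h (29.9% of the former and 41.9% of the 1628 higher at 2 h). Another 116 were lower at 2 h and 1482 not called. Of the 2314 genes lower at 24 h, 336 were lower at 2 h (14.5% of the former and 31.8% of the 1058), and 279 were higher. Over all genes tested 14% were higher and 9.1% lower at 2 h, and 19.6% and 19.9% at 24 h. The counts of 116 and 279 in opposite directions lay under the shares over all genes at 2 h. The difference between the responses was called for 1686 genes in the upward and 2100 in the downward direction. The rule for the time difference named, on the side of the later response, C3, Ccl5, H2-T22, Fcgr1, Ms4a6c and Lgals3bp, and on the other side Tnfaip3, Sdc4, Tnfaip2, Nfkbiz, Ccl3 and Reps2. Lgals3bp, a secreted glycoprotein, was at 228, 223 and 237 CPM in Control and 1582, 1781 and 1646 CPM in LPS at 24 h (2.87), and had -0.24 at 2 h. Sdc4, a cell surface proteoglycan, had 0.60 at 24 h and 4.00 at 2 h, with 1800 to 2160 CPM in LPS at 2 h and 126 to 150 CPM at 24 h. Reps2 differs from the other members of that side in that it was not called at 2 h (0.14) and fell at 24 h.

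**Figure D5:**
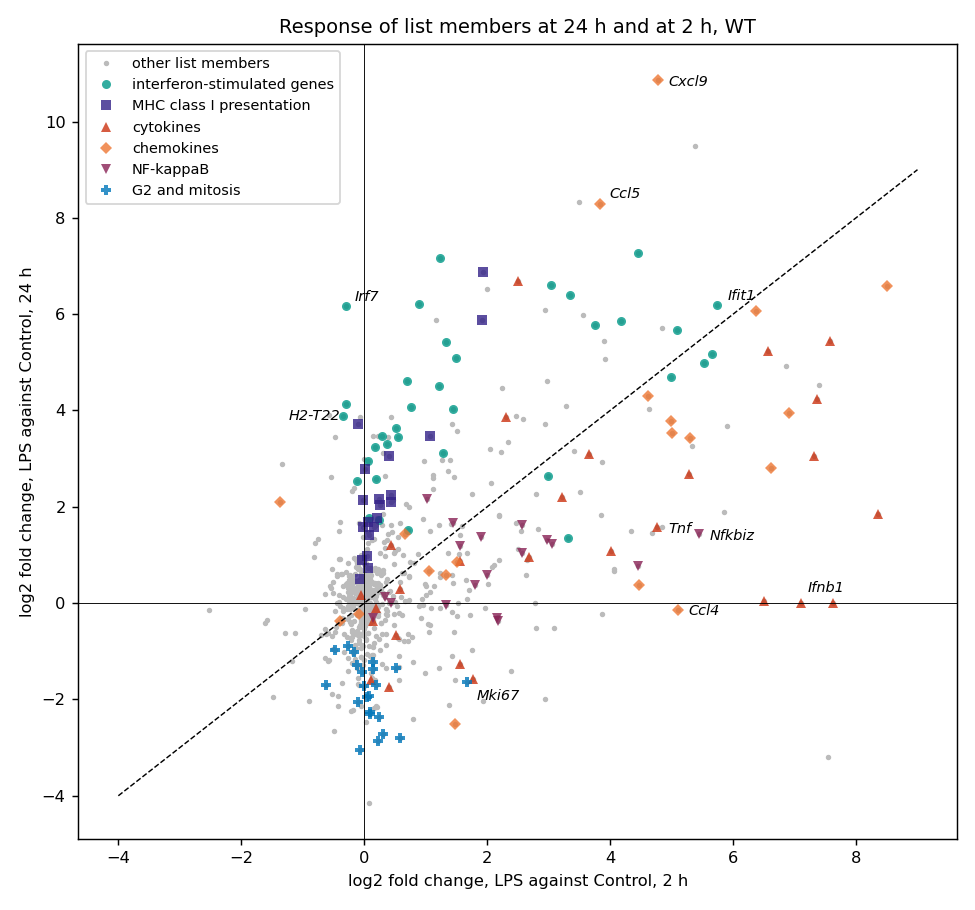
Log2 fold change of LPS against Control at 24 h (vertical) against that at 2 h (horizontal) for the tested members of all lists in WT, with 6 groups coloured and a dashed line where the values are equal. Most interferon-stimulated and all MHC class I genes lie above the line, most cytokine, chemokine and NF-kappaB genes below it, and the G2 and mitosis genes below 0 at 24 h, with Mki67 apart from them at 2 h, and values of genes with 0 counts in a group, such as Cxcl9 and Ifnb1, depend on the prior count of the fit.

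In cells labelled KO, LPS raised 2310 genes (19.9%) and lowered 2440 (21%) at 24 h, and 1803 genes were higher with both labels (79.1% of those in WT and 78.1% of those labelled KO). Lower with both were 1863 genes (80.5% and 76.4%), and 0 were called in opposite directions. In WT, Irf5 itself had a log2 fold change of 0.12 at 24 h (adjusted p = 0.0856). All 35 interferon-stimulated genes and all 20 genes of the MHC class I list were higher with either label, all 22 genes of G2 and mitosis were lower, and 37 of the 75 nuclear subunits of oxidative phosphorylation were higher in the libraries labelled KO (median 0.27). All 8 tested protein genes of the mitochondrial genome were lower in those libraries (median -0.56), against 3 in WT (median -0.24). The difference between the labels was called for 0 of these 8. The difference in response between the labels was called for 1 gene, Fcgr3 (0.0086% of the genes tested). Of the 11624 genes tested, 628 had an unadjusted p under 0.05 in the same edgeR test. A share of about 0.05 would have it if no gene differed, so 628 is not a count of genes that differ. DESeq2 called 2 genes and the fit of only the 12 libraries concerned 0. Fcgr3, a low-affinity Fc receptor (chromosome 1, 171051174 to 171064935, minus strand), was at 235, 226 and 255 CPM in Control and at 122, 140 and 130 CPM in LPS in WT. In the libraries labelled KO it was at 251, 257 and 256 CPM and at 95, 102 and 86.1 CPM, a larger fall (-1.44 against -0.87, difference 0.57, SE 0.11, adjusted p = 0.0334). Control libraries overlapped between the labels and LPS libraries did not. No gene was called without LPS library 2 or Control library 1 or 2 of WT, or without LPS library 1 or 3 or Control library 1 or 2 of those labelled KO.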

How the data were processed

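Per the labels and the methods of the study, RNA of BMDM was made into ribosome-depleted stranded libraries and sequenced as paired reads of 100 bases, and the authors aligned reads to mm10 with STAR (submitters' processing notes: fastp 0.19.11, STAR 2.7.3a). The deposited file holds raw counts per gene, not normalized, for 42 libraries in 14 groups of 3. Annotation release and use of strand in counting are not given in the sources used here. All columns were used (0 left out).

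All 42 libraries were fitted with 1 mean per group in edgeR 4.0.16 (R 4.3.3; TMM, filterByExpr, quasi-likelihood test, Benjamini-Hochberg adjustment). Of 37310 genes 12146 had no count and 11624 were tested. Calls were made where the adjusted p was under 0.05. Levels are TMM-scaled CPM, those of marker lists plain CPM. SE is the log2 fold change over the root of F. The fit was tested on simulated data. The labels number the libraries of a group, the columns do not. Identifiers were matched to GENCODE M21 (GRCm38, 32620 matched).

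Named were the 12 called genes per direction with the smallest adjusted p and the 12 with the largest fold change (at least 10 CPM, no overlap), the 3 called members per direction with the largest change in each role of each list, and high members not called up to 3 per role. A fixed set of genes of the LPS response was named too, as were the 6 per direction with the smallest adjusted p for the time difference and genes called for the genotype difference. Other names were chosen after their values were seen. The members, lists, motifs and tests were chosen with earlier results of these data known.

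Floors set a group with 0 counts at 3 counts over its pooled libraries. Ratios of few counts have exact 95% intervals. Alternatives were RLE size factors, no filter, only the libraries compared, DESeq2 1.42.0, a fold threshold and leaving out each library. Some genes are not reported here.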

Additional observations from a re-analysis of the deposited data

Results flagged for a closer look

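The response at 24 h differed from that at 2 h, by a test of the difference itself in the same edgeR fit, for 32 of the genes chosen by name or by their place among the differences. Values are the log2 fold change at 24 h minus that at 2 h. It was above 0 for Lcn2 (4.71), Saa3 (4.52), Ccl5 (4.45), Fcgr1 (3.93), H2-T22 (3.83), C3 (3.42), Lgals3bp (3.10), Ms4a6c (2.26), Sod2 (1.15), Marco (1.07), Ghitm (0.51), Abcg1 (0.42), Plin2 (0.42) and Tlr4 (0.37). It was below 0 for Ccl3 (-4.09), Nfkbiz (-4.01), Ptgs2 (-3.96), Tnfaip3 (-3.69), Reps2 (-3.41), Sdc4 (-3.39), Mki67 (-3.31), Tnf (-3.19), Cxcl10 (-2.96), Il10 (-2.92), Mrc1 (-2.37), Tnfaip2 (-2.36), Socs3 (-2.21), Il1b (-2.12), Cd14 (-1.04), Acod1 (-0.61), Irf5 (-0.47) and Abca1 (-0.41). Each time point has untreated libraries of its own, and the untreated levels of some of these genes were not the same at the 2 times. The part of this in the differences was not tested.

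The difference in the response at 24 h between libraries labelled WT and KO was tested in the same way and was called for Fcgr3 alone (0.57 on the log2 scale), whose fall was larger in the libraries labelled KO.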

How the results depend on the processing

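Of 312 named genes called at 24 h, 266 were tested and called in all 10 settings and 41 lost the call in some, while 0 changed direction. The fit of only the libraries compared did not test 10 of the 319 named genes. RLE size factors ended the call of 1 named gene, testing all genes with a count that of 6, fitting only the libraries compared that of 4 and DESeq2 that of 4, and leaving out 1 library that of 14 to 21. The genes called at 24 h numbered 1534 when a log2 fold change over 1 was also required, and 3945 to 4230 when 1 library was left out, against 4594. The 695 higher and 837 lower genes given above were counted from fold changes rounded to fewer digits and sum to slightly fewer than 1534. The difference between the labels WT and KO was called for 26 genes when all genes with a count were tested, for 0 when only its libraries were fitted, for 2 by DESeq2 and for 0 to 2 when 1 library was left out, against 1. Of 350 counts of list members under alternatives 341 were within 1.5 times the reported count. When all genes with a count were tested, 5 members of the TCA list (9 reported) and 3 of the prostaglandin list (5 reported) were higher. Leaving out 1 library gave 7 to 14 higher members of the glycolysis list, 5 to 9 of the TCA list and 3 to 5 of the prostaglandin list, the last with 3 without Control library 1 or 2, and 1 to 4 lower genes of the mitochondrial genome. The cause of these shifts was not tested. The median log2 fold change of all genes was -0.01 with TMM and -0.02 with RLE or DESeq2 scaling. No paired analysis was possible because the columns of the count table carry no replicate number. At these depths a gene under 3 counts, 0.460 to 0.877 CPM, could not be told from absence in a single library.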
